A study of Mus musculus with 15 samples.

Results

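Wild-type B16-F10 cells, a pigmented melanoma line of the C57BL/6 mouse, were set against wild-type MC38 cells, a mouse colon adenocarcinoma line, in RNA sequencing libraries of polyadenylated RNA from cultured cells. The comparison took the 4 wild-type libraries of each line, 8 of the 15 libraries of the series, and left out the 7 libraries in which Ssbp4 had been deleted or overexpressed. Wild-type B16-F10 cells had received Cas9 and a control guide RNA against an intergenic region of chromosome 2 by nucleofection, per the protocols in the labels. Wild-type MC38 cells carry no vector as far as the labels say, so the lines differ in handling as well as in origin. Both lines were grown in the same medium with serum, and the tissue label reads melanoma for both, although the library names of MC38 say colon. Nothing in the labels says that libraries of a line came from separate cultures, so the spread given here may be technical. Each library's FPKM values (fragments counted per length of gene and per depth of library) were joined by gene name over the 53088 names that both deposited tables hold and rescaled to a common sum. Of these, 12876 genes with a mean rescaled FPKM of at least 1 in either line were kept. Values below are rescaled FPKM, and means are given ± SD over 4 libraries.

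The authors normalized each line in a table of its own, so line and table cannot be told apart. No test was made between the lines, and large differences are described by a rule of size. A gene is called B16-F10-high or MC38-high where the mean of log2(rescaled FPKM + 1) differed by at least 3, which is 8-fold, and all 4 libraries of one line lay above all 4 of the other. The value of 1 added before taking logarithms makes these differences smaller than the true ones for low genes. Where a line was listed at 0, or its mean was under 1, no ratio is given. Genes named beyond the members that a fixed rule picks, such as B2m, Mtap, Cdkn1a, Myc and Cd274, were chosen after their values were seen.

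Melanocytes descend from the neural crest and make melanin in melanosomes, organelles related to lysosomes. The transcription factors MITF and SOX10 are known to switch on the genes of melanin synthesis and of melanosome structure and transport. Epithelial cells of the colon are known for keratins, E-cadherin and the transcription factors CDX1 and CDX2, whereas mesenchymal cells express fibrillar collagens and factors such as TWIST1 and PRRX1. Class I molecules of the major histocompatibility complex (MHC) display peptides cut by the proteasome to CD8 T cells, and interferon raises the genes of this route in many cells.

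Estimated depth, in units of 1000000 fragments, was 32.5 to 48.8 per B16-F10 library and 32.5 to 38.1 per MC38 library. Across kept genes the log values of 2 libraries correlated with Pearson r of 0.9955 to 0.9962 within MC38, and of 0.7474 to 0.7646 between the lines. Genes are not independent replicates, so these values only describe the libraries. Within B16-F10, libraries 1 and 2 stood apart from libraries 3 and 4, with r of 0.9964 to 0.997 inside these pairs and 0.9895 to 0.9902 across them. The labels name no batch that would separate the pairs. Mitochondrially encoded transcripts took 3.91 to 4.26% of the signal in B16-F10 and 5.01 to 6.71% in MC38, and ribosomal protein genes took 11.0 to 12.2% and 14.2 to 15.1%. What part these differences of composition play in the results was not tested.

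In all, 524 genes were B16-F10-high, 4.07% of those kept, and 386 were MC38-high, 3.0%. With B16-F10 libraries 3 and 4 alone the counts were 499 and 392, and with libraries 1 and 2 alone they were 550 and 391. Without regard to size, the 4 B16-F10 libraries lay above the 4 MC38 libraries for 5619 genes (43.6%) and below them for 4617 (35.9%), so lack of overlap alone was common. Most genes differed little, and 8233 (63.9%) differed by less than 1 on the log2 scale. Genes switched from one line to the other were frequent among the large differences. In 171 genes the mean was at least 10 in B16-F10 and no MC38 library was above 0.1, and 125 genes showed the reverse. Housekeeping genes differed little, with 0 of 27 past the rule and a median difference of 0.15. Among them Gapdh, the glycolytic enzyme, stood at 4663 ± 509.6 in B16-F10 and 3026 ± 174 in MC38, a ratio of 1.54, and Eef1a1, the elongation factor of translation, at 12256 ± 244 and 10936 ± 334, a ratio of 1.12. At the edge of the rule the smallest difference inside was 3.00 for B16-F10-high genes and 3.01 for MC38-high genes, and the largest outside was 3.00 for both.

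**Figure D1:**
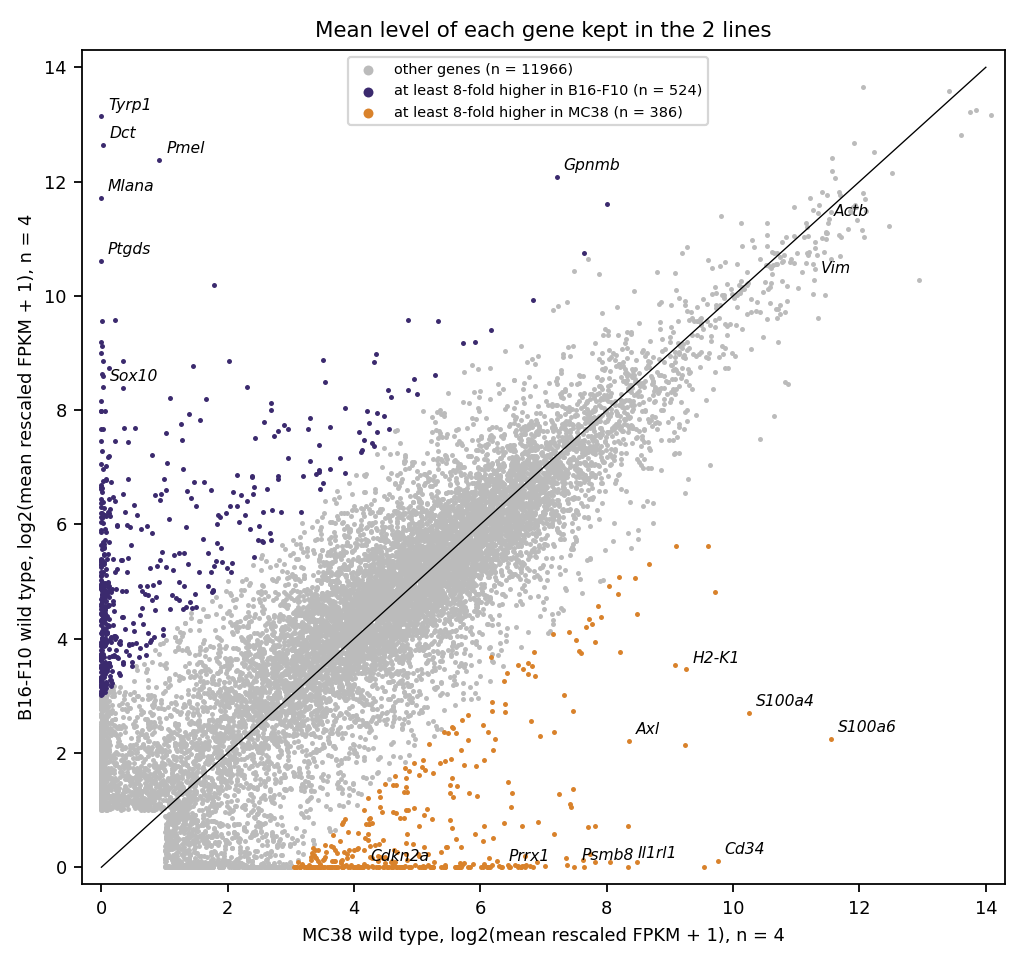
Mean level of each of the 12876 genes kept, MC38 on the horizontal and B16-F10 on the vertical axis, both as log2(mean rescaled FPKM + 1) over 4 libraries, with the line of equality. Genes far above the line (524, dark) include Tyrp1, Dct, Pmel and Mlana near 0 in MC38, and genes far below it (386, orange) include S100a6, Cd34 and H2-K1.

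Pigment genes had the largest median difference of the 21 gene lists examined. All 20 genes of the melanosome and pigment list were kept, and in all 20 the B16-F10 libraries lay above the MC38 libraries, with a median difference of 7.80 against 0.10 over all kept genes. Of the 20, 15 were B16-F10-high and 0 were MC38-high, against 4.07% and 3.0% of all kept genes. The B16-F10 libraries lay above in 43.6% of all kept genes. This list and the other gene lists were chosen with results of these data known, and the melanocyte markers were given with the comparison, so their direction is a description. The 5 melanocyte markers took 2.14 to 2.74% of all B16-F10 signal.

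Tyrp1, an enzyme late in the eumelanin pathway, stood at 9854, 9723, 8602 and 8022 in the 4 B16-F10 libraries and was listed at 0 in every MC38 library. It ranked 6 among all genes by its B16-F10 mean. Dct, the dopachrome tautomerase that acts before it, stood at 7288, 7273, 5606 and 5465, against 0.0491, 0, 0 and 0 in MC38. Pmel, whose product forms the fibrils on which melanin is laid down, stood at 5881, 6083, 4652 and 4714 in B16-F10 and at 0.685, 0.605, 1.18 and 1.10 in MC38. Mlana, a melanosome membrane protein that T cells often recognise in melanoma, stood at 3969.9, 3979, 2619.9 and 2891 in B16-F10 and was listed at 0 in MC38. Each of these genes was lower in B16-F10 libraries 3 and 4 than in libraries 1 and 2, but the lowest B16-F10 library was still far above the highest MC38 library.

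Tyr, the tyrosinase that catalyses the first and limiting step, was less abundant, with 458, 444, 342 and 334 in B16-F10 and 0.0197, 0, 0.0189 and 0.0100 in MC38. The transporters that set the ion balance and pH of the melanosome were likewise apart. Slc45a2 had a mean of 749 ± 150.0 in B16-F10 and 0.0048 ± 0.0095 in MC38, and Slc24a5 had 759 ± 84.3 and 0.163 ± 0.155. The transport genes Rab38, at 511 ± 38.6, and Mlph, at 384 ± 110.3, were listed at 0 or at most at 0.0459 in any MC38 library. Rab38 brings cargo to the forming melanosome, and the product of Mlph links the finished organelle to the motor encoded by Myo5a. The ion channel gene Trpm1 was uneven within B16-F10, with 773, 782, 335 and 329, and libraries 1 and 2 were the higher ones.

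Members of the list that also serve other cells differed less. Gpnmb, a glycoprotein of melanosomes and lysosomes, had a mean of 4321 ± 879 in B16-F10 and 147 ± 2.55 in MC38, a ratio of 29.4. Myo5a, the motor itself, stood at 234 ± 16 and 36.7 ± 3.20, a ratio of 6.38, and was not past the rule. The copper transporter Atp7a, at 32.6 ± 4.06 and 6.86 ± 0.620, the Hermansky-Pudlak gene Hps4, at 32.5 ± 10.9 and 11.0 ± 0.369, and Bloc1s5, at 7.34 ± 0.648 and 4.34 ± 0.351, were also not past it. Slc24a4, at 4.75 ± 0.893 in B16-F10 and 0.0187 ± 0.0237 in MC38, was the remaining member not past the rule. It was low in B16-F10 and near 0 in MC38, and missed the rule because 1 is added before the logarithm, not because the lines were close.

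The promoters of the pigment enzymes are shown because they share a sequence. RefSeq windows on GRCm38, from 250 bases before to 50 after the annotated start, were searched on both strands for CATGTG, the core of the M-box that MITF is known to bind, which overlaps the general E-box. The submitters' processing notes name the later GRCm39, so these positions apply to the windows and not to the deposited values. The Tyr window is chr7:87493463-87493762 on the minus strand, that of Tyrp1 is chr4:80833963-80834262 on the plus strand, that of Dct is chr14:118052197-118052496 on the minus strand, and that of Tspan10, a tetraspanin gene described below, is chr11:120442381-120442680 on the plus strand. Each runs 5′ to 3′ in the direction of the gene, and capitals mark the core, on either strand, or the longer run that the 3 enzymes share.
Tyr: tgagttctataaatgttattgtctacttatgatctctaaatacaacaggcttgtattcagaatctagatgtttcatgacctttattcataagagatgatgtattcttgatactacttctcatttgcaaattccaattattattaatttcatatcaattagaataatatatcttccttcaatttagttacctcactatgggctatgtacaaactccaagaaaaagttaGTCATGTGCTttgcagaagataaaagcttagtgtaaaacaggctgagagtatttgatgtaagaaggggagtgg
Tyrp1: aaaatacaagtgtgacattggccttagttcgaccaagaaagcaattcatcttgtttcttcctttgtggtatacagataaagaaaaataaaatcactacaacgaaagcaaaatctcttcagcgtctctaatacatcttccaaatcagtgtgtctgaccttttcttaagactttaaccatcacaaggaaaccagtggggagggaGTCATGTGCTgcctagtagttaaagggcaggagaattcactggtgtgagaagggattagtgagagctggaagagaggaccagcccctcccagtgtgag
Dct: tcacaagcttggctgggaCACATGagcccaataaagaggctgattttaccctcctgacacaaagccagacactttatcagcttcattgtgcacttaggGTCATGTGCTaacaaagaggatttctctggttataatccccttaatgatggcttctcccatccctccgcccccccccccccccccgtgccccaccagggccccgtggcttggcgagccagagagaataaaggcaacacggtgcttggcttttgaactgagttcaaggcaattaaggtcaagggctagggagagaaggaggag
Tspan10: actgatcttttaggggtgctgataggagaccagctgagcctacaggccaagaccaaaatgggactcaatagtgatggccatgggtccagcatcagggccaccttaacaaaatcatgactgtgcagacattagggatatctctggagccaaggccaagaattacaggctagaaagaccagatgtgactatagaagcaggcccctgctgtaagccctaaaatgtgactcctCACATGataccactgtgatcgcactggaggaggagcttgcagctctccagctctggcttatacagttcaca
The longest run found in the windows of Tyr, Tyrp1 and Dct together was GTCATGTGCT, of 10 bases, which contains the core. It occurred in 61 of 32851 RefSeq windows (0.186%) and in 5 of the 9700 kept genes with a window. Of these 5, the B16-F10-high genes were Tyr, Tyrp1 and Dct, and 0 were MC38-high. The run was taken from the windows of these 3 genes, so that they hold it was fixed in advance. The core began at -21 in Tyr, -46 in Tyrp1 and -21 in Tspan10, counted from the start, and at -232 and -150 in Dct. CATGTG on its own was held by 14.2% of all windows and, counted per gene, by 15.9% of all genes with a window. It was held by 10.4% of kept genes with a window, by 62 of 368 B16-F10-high genes (16.8%) and by 28 of 273 MC38-high genes (10.3%). Of the 14 genes of the pigment list with a window, 6 held it. These matches describe letters in fixed windows, and binding was not measured.

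Upstream of the pigment genes, the melanocyte and neural crest lineage list had 16 of 22 members kept, of which 10 were B16-F10-high, against 4.07% of all kept genes, and 0 MC38-high, with a median difference of 4.33. Sox10, the neural crest factor that acts on Mitf and on pigment genes, stood at 346, 360.5, 313 and 327 in B16-F10 and at 0.0199, 0, 0 and 0.0442 in MC38. Mitf, the master regulator of melanocytes, stood at 326, 322, 269.5 and 255 in B16-F10 and at 1.84, 2.00, 1.72 and 2.98 in MC38, a ratio of means of 137. Neither gene's libraries overlapped between the lines, and Mitf was somewhat lower in B16-F10 libraries 3 and 4. Pax3, a further regulator of Mitf, had a mean of 106 ± 5.59 and 1.77 ± 0.161, a ratio of 60.2.

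Surface receptors of the lineage were in part present. Mc1r, the receptor for melanocyte-stimulating hormone, stood at 108 ± 2.31 in B16-F10 and 0.0543 ± 0.0255 in MC38. Kit, the receptor for stem cell factor, was low in B16-F10, with 15.6, 15.2, 7.85 and 7.04, and listed at 0 in MC38. Mcam, an adhesion molecule of melanoma cells, stood at 315, 323, 92.5 and 90.4 in B16-F10, so libraries 1 and 2 were well above libraries 3 and 4. It reached at most 0.450 in MC38. Ednrb, the endothelin receptor of melanoblasts, was listed at 0 in all B16-F10 libraries and reached at most 0.0427 in MC38. Foxd3, a factor of the early neural crest, was listed at 0 in all 8 libraries. The other members not kept, Tfap2b, Mia, Ngfr and Irf4, were at most 0.322 in any B16-F10 library. Among kept members, those that went the other way or overlapped were Sox9, at 3.37 ± 0.335 in B16-F10 and 15.9 ± 0.733 in MC38, and S100a1, whose libraries overlapped at 99.5 ± 31.7 and 88.1 ± 6.23. Tfap2a (72.0 ± 2.82 and 12.9 ± 0.804) and Met, the receptor for hepatocyte growth factor (428 ± 40.8 and 69.9 ± 5.84), were present in both lines and higher in B16-F10.

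Among the 20 largest differences toward B16-F10, several fell outside the pigment and lineage lists. Ptgds, which makes prostaglandin D2 and binds retinoids, stood at 2128, 2199, 944 and 979 in B16-F10 and was listed at 0 in MC38. Tspan10 stood at 684, 714, 474 and 471 and was also listed at 0 there. Apoe, the lipid carrier, stood at 1241, 1261, 1086 and 1087 in B16-F10 and 1.68, 2.37, 2.24 and 3.54 in MC38, a ratio of means of 476. In Ptgds and Tspan10 libraries 1 and 2 were again the higher ones, and none of these 3 genes overlapped between the lines. The other genes of this group were Car14, a membrane carbonic anhydrase, at 462 ± 15.7, Syt4, a synaptotagmin of secretory vesicles, at 427 ± 39.7, Syngr1, a synaptic vesicle protein, at 465 ± 49.5, Pianp at 283 ± 43.6, Dnai1, a subunit of the dynein of cilia, at 253 ± 60.8, and Fkbp6 at 251 ± 22.5. Their MC38 libraries were at most 0.504 in every case.

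MC38 was checked against its origin next. The 5 intestinal markers were at or near 0 in both lines. Cdx1 and Cdx2, the transcription factors of intestinal identity, were listed at 0 in all 8 libraries. Vil1, a microvillus protein, stood at 0.316, 0.288, 0.432 and 0.314 in B16-F10 and 0.156, 0, 0 and 0.0192 in MC38, Krt20 reached at most 0.0267 in any library, and Cdh17 at most 0.346. Of 26 genes on the intestinal list 3 were kept, 14 were listed at 0 in every library of each line, and the summed level was 9.35 to 11.6 in MC38 and 8.22 to 9.25 in B16-F10. Of the kept members, Ceacam1 (3.21 ± 0.563 in B16-F10 and 0.0035 ± 0.0070 in MC38) and Lgals4 (2.45 ± 0.167 and 0.683 ± 0.281) were higher in B16-F10. In the 1 other kept member the MC38 libraries lay above, short of the 8-fold rule. It was the only member of the list with a mean of at least 5 in either line. The defining markers of melanocytes and of intestinal epithelium were thus both at or near 0 in MC38, and the line is called by its name here.

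General epithelial genes were low in MC38 and lower still in B16-F10. Of 28 listed, 6 were kept, and in 5 the MC38 libraries lay above the B16-F10 libraries, but 0 were past the 8-fold rule. Across all kept genes 35.9% lay that way and 3.0% were MC38-high. The summed level was 23.9 to 29.0 in MC38 and 3.65 to 4.49 in B16-F10. Krt8 and Krt18, the paired keratins of simple epithelia, stood at 5.50, 7.40, 5.89 and 6.71 and at 5.30, 6.57, 6.75 and 6.93 in MC38, and both were listed at 0 in B16-F10. Krt19, a further keratin of these cells, was at 0.334 ± 0.400 in MC38 and listed at 0 in B16-F10. Epcam, an epithelial adhesion molecule, stood at 1.76, 1.30, 1.57 and 2.06 in MC38 and was listed at 0 in B16-F10. Cdh1, which encodes E-cadherin, was under 1 in both lines, with 0.343, 0.309, 0.631 and 0.512 in B16-F10 and 0.634, 0.547, 0.534 and 0.704 in MC38, and its libraries overlapped. In bulk RNA, fewer cells of a type and less RNA per cell cannot be told apart, so these levels do not say how many MC38 cells hold keratin RNA. Klf5, a factor of epithelial progenitors, had a mean of 5.59 ± 0.232 in MC38 and 0.414 ± 0.181 in B16-F10.

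**Figure D2:**
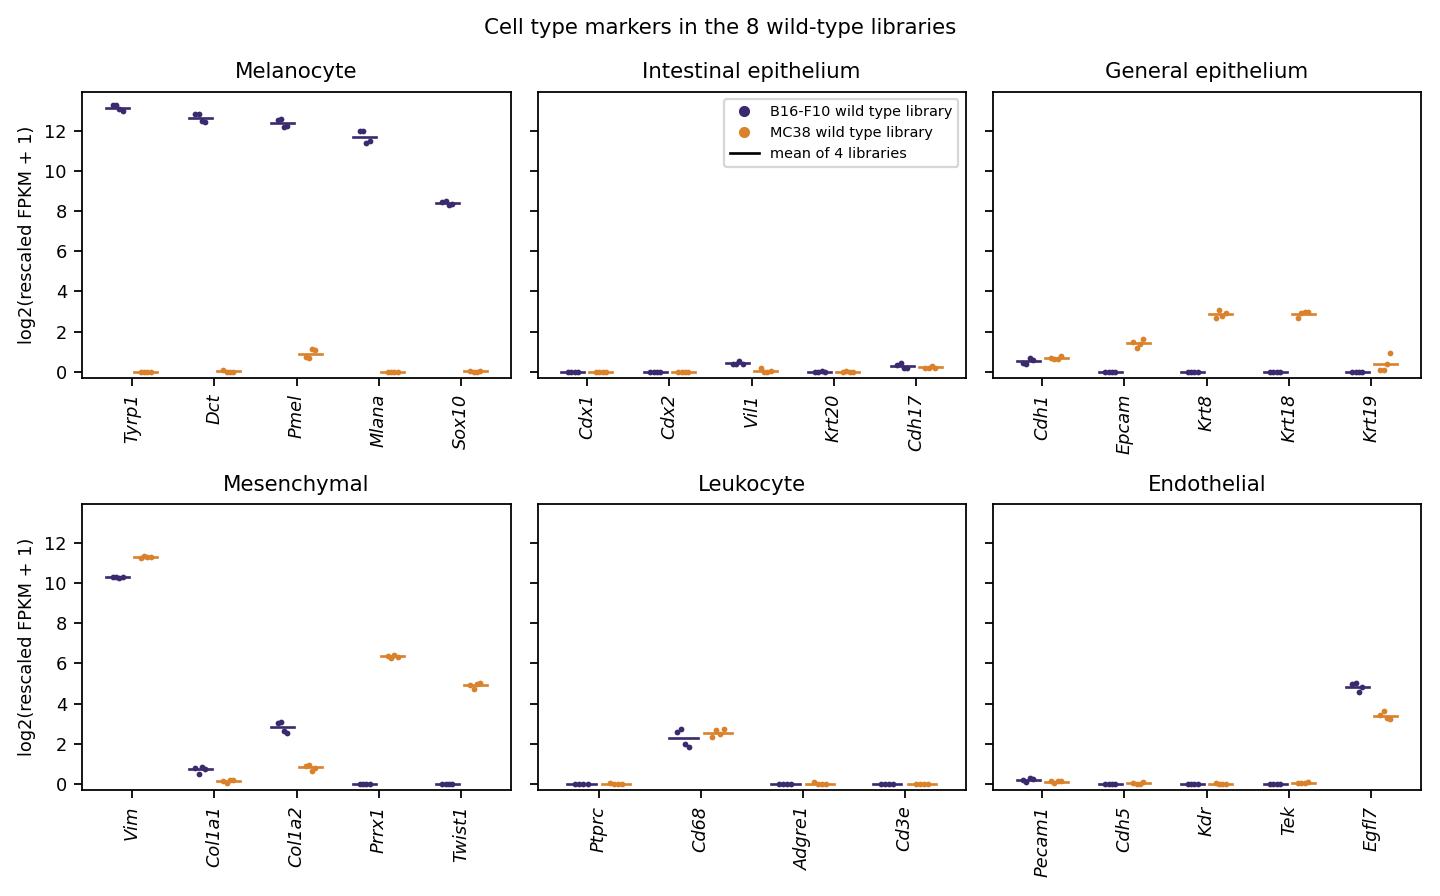
Level of markers of 6 cell types in the 8 wild-type libraries, as log2(rescaled FPKM + 1), with a point per library and a bar at the mean of 4. The melanocyte markers stand high in B16-F10 alone, intestinal markers are at or near 0 in both lines, Krt8 and Krt18 are low in MC38, and Prrx1 and Twist1 are present in MC38 and listed at 0 in B16-F10.

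Mesenchymal and matrix genes held the most MC38-high members of any list. Of 40 listed, 31 were kept, 18 were MC38-high, against 3.0% of all kept genes, and 1 was B16-F10-high, with a median difference of -3.72. Several transcription factors of mesenchyme were listed at or near 0 in B16-F10. Prrx1 stood at 81.8, 77.2, 84.0 and 77.8 in the MC38 libraries and Twist1 at 29.5, 25.1, 30.3 and 31.0, and both were listed at 0 in every B16-F10 library. Twist2 (54.9 ± 7.64 in MC38, listed at 0 in B16-F10) and Snai1 (35.2 ± 5.09 and 0.0330 ± 0.0660) showed the same, and Zeb1 had 12.9 ± 0.580 and 0.0537 ± 0.0433. Zeb2 went the other way, at 49.9 ± 3.67 in B16-F10 and 23.2 ± 1.14 in MC38, as did Cdh2, the gene of N-cadherin, at 64.7 ± 5.48 and 11.3 ± 0.307. So Zeb1 and Zeb2 differed between the lines in opposite directions, and Zeb2 had the higher mean in both lines.

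Matrix genes of MC38 were selective. Col3a1, a fibrillar collagen of soft tissue, stood at 201, 205, 183 and 192 in MC38 and 0, 0, 0.0090 and 0.333 in B16-F10. Dcn, the collagen-binding proteoglycan decorin, stood at 126, 129, 136 and 128 in MC38 and at most at 0.0467 in B16-F10. The collagen VI genes Col6a1, at 51.1, 51.0, 49.9 and 48.1, and Col6a3, at 67.6 ± 11.6, and the microfibril gene Fbn1, at 35.9 ± 5.75, were at most 0.0125 in B16-F10. Both chains of collagen I, in contrast, were low everywhere and higher in B16-F10, with 0.760, 0.411, 0.800 and 0.682 against 0.128, 0.0522, 0.154 and 0.162 for Col1a1 and 7.16, 7.61, 5.30 and 4.72 against 0.838, 0.945, 0.565 and 0.751 for Col1a2. Vim, the intermediate filament of mesenchymal cells, was abundant in both lines at 1246 ± 19.4 in B16-F10 and 2495 ± 77.1 in MC38, a ratio of 2.00. Mmp14, a membrane protease of the matrix, did not separate the lines, at 172 ± 11.1 and 171 ± 6.73. Ccn2, a matrix signalling protein, was the B16-F10-high member, at 18.5, 17, 9.70 and 10.3 in B16-F10 and 0.270, 0.258, 0.404 and 0.642 in MC38, and with B16-F10 libraries 3 and 4 alone it was no longer past the rule.

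Of the 20 genes with the largest differences toward MC38, the most abundant in MC38 was S100a6, a calcium-binding protein of proliferating and mesenchymal cells, with 3204, 2997, 2849 and 2985 in MC38 and 1.35, 0.703, 6.28 and 6.63 in B16-F10, a ratio of means of 805. Cd34, a sialomucin of blood progenitors, endothelium and some fibroblasts, stood at 885, 854, 867 and 853 in MC38 and at most at 0.150 in B16-F10. Il1rl1, the receptor for interleukin 33, stood at 779, 728, 745 and 733 in MC38 and was listed at 0 in B16-F10. Each of these 3 genes was nearly even across the MC38 libraries, and the lines did not overlap. S100a4, a relative of S100a6, was uneven in B16-F10, at 0.495, 1.03, 10.2 and 10.3, and stood at 1242, 1208, 1173 and 1242 in MC38.

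Further genes of this group encode regulators and secreted proteins. Fosl1, a subunit of the AP-1 transcription factor, had a mean of 354 ± 11.6 in MC38 and 0.0703 ± 0.0926 in B16-F10. Rhox5, an X-linked homeobox gene, stood at 600.5 ± 30.3 in MC38 and 4.37, 6.10, 1.12 and 2.13 in B16-F10. Anxa3, a membrane-binding annexin, had 323 ± 9.12, and Ly6e, a surface protein anchored by lipid, had 199 ± 6.66, and both were listed at 0 in B16-F10. The secreted protease Htra1 (224 ± 4.10), the matrix protein Thbs2 (212 ± 4.14), the guidance cue Sema3a (118 ± 5.91), the muscle form of a cytochrome oxidase subunit Cox6a2 (225 ± 28.5), the actin bundler Fscn1 (208 ± 15.9) and the tropomyosin Tpm2 (263 ± 10.3) had B16-F10 means under 1. So did Nptx1, a pentraxin of neurons (162 ± 6.12), and Stbd1, a glycogen-binding protein (164 ± 2.88). Prl2c2 (323 ± 15.7 in MC38) belongs to a family of near-identical genes, and how reads were shared among them is not given in the sources used here. The AP-1 site TGANTCA was held, on either strand, by 7.81% of all windows and, counted per gene, by 8.97% of all genes with a window. It was held by 5.98% of kept genes with a window, by 12.8% of MC38-high genes and by 9.51% of B16-F10-high genes.

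The genes of the MHC class I route were lower in B16-F10 at nearly every step. All 23 listed genes were kept, and in 20 of them the MC38 libraries lay above the B16-F10 libraries, against 35.9% of all kept genes. Of these, 12 were MC38-high, against 3.0% of all kept genes, and 0 were B16-F10-high, with a median difference of -3.28 over the list. Among the heavy chains, H2-K1 stood at 6.52, 8.25, 14.2 and 11.2 in B16-F10 and 578, 617, 594 and 637 in MC38, a ratio of means of 60.4. H2-D1 stood at 51.8, 55.9, 40.0 and 45.0 in B16-F10 and 522, 567, 522 and 584 in MC38, a ratio of 11.4. In both genes the highest B16-F10 library was far under the lowest MC38 library. B2m, the light chain shared by all class I molecules, was apart by less, with 416, 384, 307 and 292 in B16-F10 and 1842, 1842, 1915 and 1869.6 in MC38, a ratio of 5.33, and was not past the rule.

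The genes of peptide supply differed too. Psmb8, a subunit of the immunoproteasome, stood at 181, 185, 167 and 180.2 in MC38, and 3 of 4 B16-F10 libraries were listed at 0, the other at 0.0251. Psmb9, its partner subunit, had 19.1 ± 2.46 in MC38 and 0.311 ± 0.359 in B16-F10, while the third, Psmb10, had 83.2 ± 7.66 and 26.0 ± 2.10. Tap1 and Tap2, the transporter that moves peptides into the endoplasmic reticulum, had 27.9 ± 1.89 and 47.9 ± 3.53 in MC38 and 1.00 ± 0.443 and 0.403 ± 0.189 in B16-F10. Tapbp, which holds class I molecules at that transporter, stood at 168 ± 7.22 and 16.4 ± 1.68, a ratio of 10.2. Nlrc5, the transactivator of class I genes, was low in MC38 at 7.36, 8.21, 7.53 and 6.11 and lower in B16-F10 at 0.432, 0.277, 0.245 and 0.427.

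General chaperones of the endoplasmic reticulum did not share this direction. Calr, which encodes calreticulin, was higher in B16-F10, at 1543, 1548, 1908 and 1889.6 against 605, 579.5, 576 and 564 in MC38, a ratio of 2.96. Canx (754 ± 46.5 in B16-F10 and 669 ± 21.5 in MC38) and Pdia3 (781 ± 82.2 and 716 ± 25.4) were close in both lines, and the libraries of Pdia3 overlapped. The lack of overlap for Canx was lost under scaling to median ratios and to the housekeeping list. The class Ib genes H2-Q6 and H2-Q7 stood at 95.5 ± 2.38 and 92.2 ± 3.96 in MC38 and near 0 in B16-F10. H2-Q genes are near-identical copies of one another and of the classical heavy chains, so the split of reads between them is uncertain.

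The class I heavy chain promoters are shown because 4 of them hold the same κB site. The windows are chr17:34000298-34000597 on the minus strand for H2-K1, chr17:35262844-35263143 on the plus strand for H2-D1 and chr17:35424600-35424899 on the plus strand for H2-Q6, from RefSeq on GRCm38. Capitals mark GGGATTCCC, a site of the NF-κB family that is known from the enhancer A of class I genes, and both strands were searched.
H2-K1: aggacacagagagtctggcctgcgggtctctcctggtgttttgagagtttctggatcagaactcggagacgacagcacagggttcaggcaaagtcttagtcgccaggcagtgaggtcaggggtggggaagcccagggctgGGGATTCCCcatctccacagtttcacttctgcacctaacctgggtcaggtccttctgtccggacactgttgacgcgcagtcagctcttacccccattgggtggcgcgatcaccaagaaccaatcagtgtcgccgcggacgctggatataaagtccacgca
H2-D1: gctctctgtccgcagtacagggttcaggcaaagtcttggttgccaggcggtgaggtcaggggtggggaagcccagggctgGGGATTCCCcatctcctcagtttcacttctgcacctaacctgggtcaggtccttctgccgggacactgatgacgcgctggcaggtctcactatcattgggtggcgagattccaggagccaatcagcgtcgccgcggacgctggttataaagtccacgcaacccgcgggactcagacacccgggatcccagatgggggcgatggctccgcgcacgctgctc
H2-Q6: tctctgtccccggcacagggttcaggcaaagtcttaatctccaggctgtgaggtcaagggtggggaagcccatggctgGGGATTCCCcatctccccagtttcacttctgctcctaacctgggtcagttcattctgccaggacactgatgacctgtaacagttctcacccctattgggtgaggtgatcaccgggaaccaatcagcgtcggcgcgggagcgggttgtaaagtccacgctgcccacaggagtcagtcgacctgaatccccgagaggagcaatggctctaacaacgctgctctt
The site began at -110 in H2-K1, -170 in H2-D1 and -172 in H2-Q6, and H2-Q7 held it too. It was present in 116 of 32851 windows (0.353%) and, counted per gene, in 0.414% of all genes with a window. It was present in 0.454% of kept genes with a window, in 7 of 273 MC38-high genes (2.56%) and in 0.272% of B16-F10-high genes. The 4 heavy chain genes make up most of those 7 and are copies of one another, so they are not independent.

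**Figure D3:**
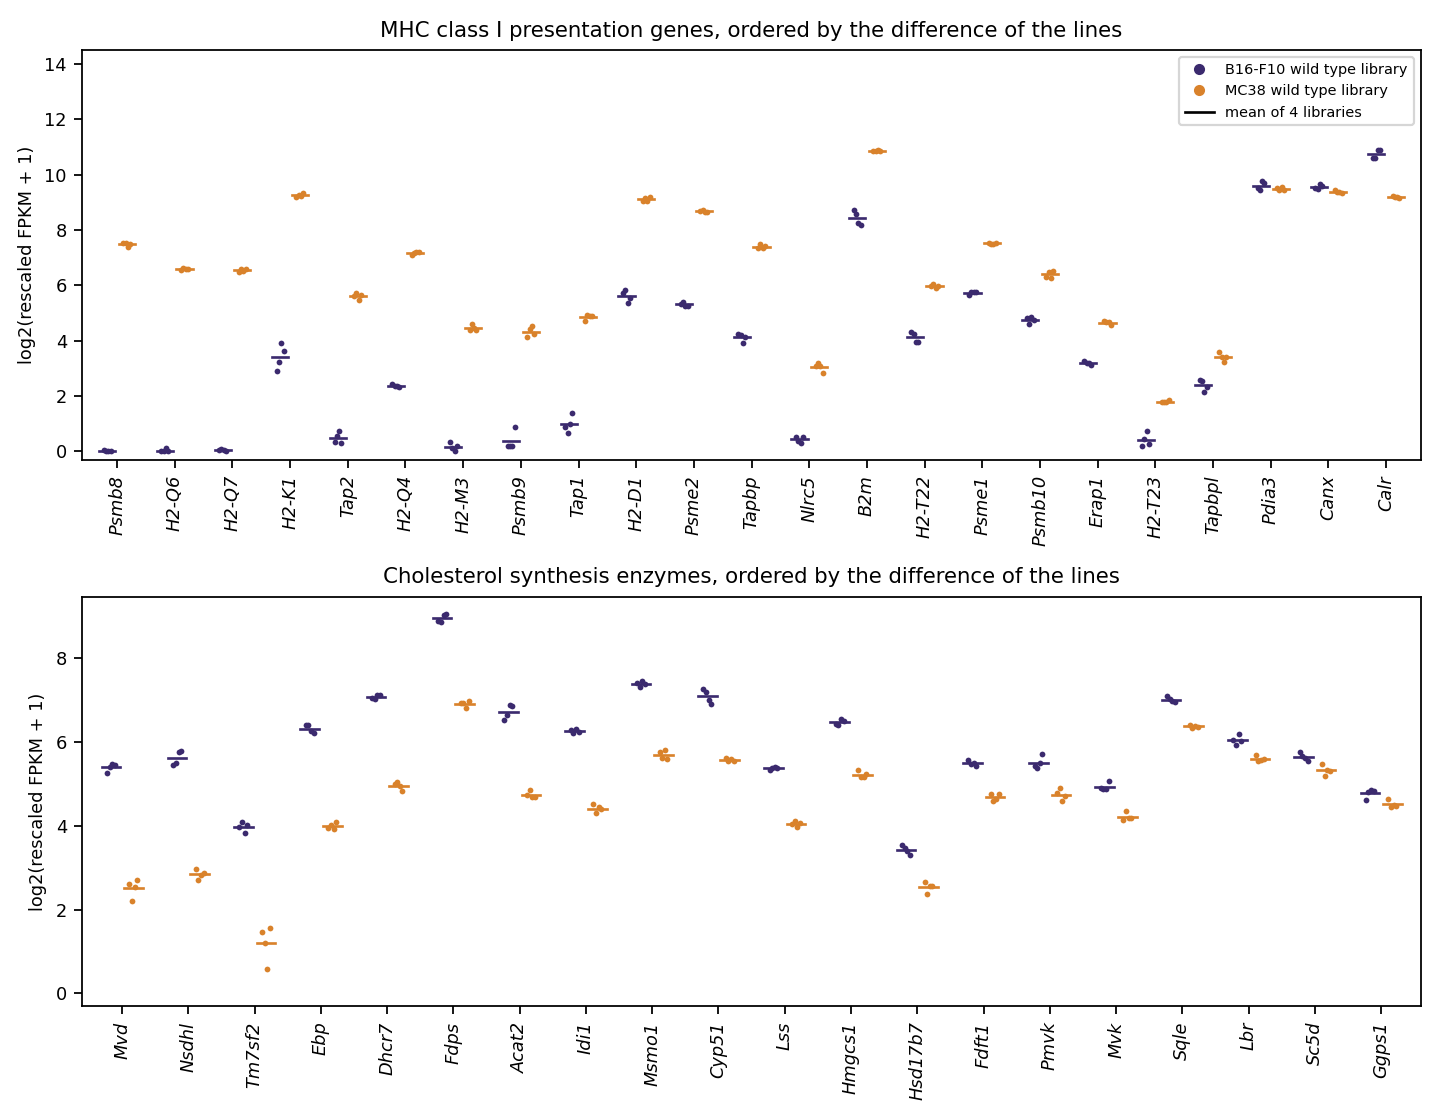
Level of the 23 MHC class I presentation genes (top) and of cholesterol synthesis enzymes (bottom) in the 8 wild-type libraries, as log2(rescaled FPKM + 1), with a point per library and a bar at the mean of 4. In the top panel MC38 stands above B16-F10 for all genes but Pdia3, Canx and Calr, and in the bottom panel the mean of B16-F10 stands above that of MC38 for all 20 enzymes plotted, with overlap in Ggps1.

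Interferon genes differed in part. Of 44 listed, 37 were kept, with a median difference of -1.24. Of these, 6 were MC38-high and 1 was B16-F10-high, against 3.0% and 4.07% of all kept genes. Ifngr1, a chain of the receptor for interferon gamma, was present in both lines, at 17.2 ± 0.905 in B16-F10 and 53.6 ± 2.09 in MC38. Among stimulated genes, the guanylate-binding gene Gbp2 stood at 4.75, 4.42, 2.42 and 3.02 in B16-F10 and 59.7, 52.2, 55.3 and 53.1 in MC38, a ratio of means of 15.1. Irf1, a transcription factor induced by interferon gamma, had 9.19 ± 0.937 and 116 ± 2.94, and the ubiquitin-like Isg15 had 2.24 ± 0.393 and 33.8 ± 3.32. Igtp, an immunity-related GTPase, had 19.7 ± 1.40 in MC38 and 0.0834 ± 0.0662 in B16-F10. Trim25, a ubiquitin ligase of RNA sensing, had 2.53 ± 0.428 in B16-F10 and 40.2 ± 2.50 in MC38, and the RNA sensor RIG-I, listed under its older symbol Ddx58, had 2.64 ± 0.963 and 42.2 ± 1.47.

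Not all of these genes pointed to MC38. Sting1, the adaptor of cytosolic DNA sensing, stood at 56.2, 52.6, 43.8 and 46.8 in B16-F10 and 2.53, 2.37, 3.05 and 2.26 in MC38, a ratio of 19.5 toward B16-F10. Cgas, the enzyme that makes its ligand, was the reverse, at 5.01 ± 0.833 and 23.8 ± 1.55. The stimulated genes Ifit2 (34.8 ± 3.02 and 10.4 ± 0.472) and Rsad2 (5.87 ± 0.577 and 0.852 ± 0.181) were higher in B16-F10, and Mx1 was low in both (1.2 ± 0.276 and 0.284 ± 0.163). The motif GAAANNGAA, part of the interferon response element, was held by 16 of 32 kept members with a window. It was held by 8.56% of all windows, 9.76% of all genes with a window and 8.12% of kept genes with a window.

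Immune ligands differed in both directions, and chemokines and cytokines were more often higher in MC38. Of 28 checkpoint and ligand genes 17 were kept, with a median difference of -0.04. The MC38 libraries lay above in 7 of these, the B16-F10 libraries in 4, and 6 overlapped, against 35.9%, 43.6% and 20.5% of all kept genes. Summed over the list the level was 1548 to 1777 in B16-F10 and 7872 to 9145 in MC38. This sum is set by the most abundant members and does not stand for the list. At a limit of 4-fold, only 3 of the 17 genes were called toward MC38 and 2 toward B16-F10. Past the 8-fold rule was 1 gene, MC38-high, against 3.0% of all kept genes. That gene was Ulbp1, a ligand of the natural killer receptor NKG2D, at 0.607, 0.517, 0.268 and 0.560 in B16-F10 and 65.6, 56.8, 58.4 and 56.5 in MC38. Cd274, which encodes PD-L1, stood at 2.19 ± 0.245 in B16-F10 and 8.63 ± 0.330 in MC38, a ratio of 3.94. Of 36 chemokine and cytokine genes 22 were kept, with a median difference of -1.44. Of these, 5 were MC38-high and 0 were B16-F10-high, against 3.0% and 4.07% of all kept genes. The MC38 libraries lay above in 15 of them, the B16-F10 libraries in 4, and 3 overlapped. Across all kept genes the shares were 35.9%, 43.6% and 20.5%. Ccl2, which draws monocytes, stood at 39.3, 36.5, 36.6 and 32.1 in MC38 and was listed at 0 in B16-F10. Csf1, the growth factor of macrophages, stood at 6.07, 6.06, 5.39 and 4.94 in B16-F10 and 170.0, 180.3, 173 and 177 in MC38, a ratio of 31.2, and Il34, which acts on the same receptor, had 18.5 ± 0.865 in MC38 and 0.0159 ± 0.0317 in B16-F10. Inhba, an activin subunit, had 33.2 ± 1.30 in MC38 and at most 0.0192 in B16-F10. Spp1, which encodes osteopontin, had 82.9 ± 2.18 in MC38 and 8.44, 9.84, 1.84 and 2.30 in B16-F10.

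Hox genes, which record the position of a cell along the body axis, formed different sets in the lines. Of 39 genes 27 were kept, 6 were MC38-high and 1 was B16-F10-high, against 3.0% and 4.07% of all kept genes. In the Hoxc cluster, Hoxc10 stood at 63.4, 66.8, 65.0 and 65.0 in MC38 and Hoxc11 at 10.7, 12.8, 11.6 and 11.2, and both were listed at 0 in every B16-F10 library. Hoxc9, at 6.08 ± 0.665 in MC38, was listed at 0 in B16-F10 too but was not past the rule. No Hoxc gene had a B16-F10 mean above 0.0751. In the Hoxd cluster, Hoxd8 (18.0 ± 1.13 in MC38 and 0.127 ± 0.0668 in B16-F10) and Hoxd9 (10.8 ± 1.79, listed at 0 in B16-F10) were MC38-high, whereas Hoxd13 was expressed in both at 10.5 ± 1.46 in B16-F10 and 28.4 ± 1.56 in MC38.

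The Hoxb cluster ran the other way. Hoxb9 stood at 13.8, 12.4, 9.64 and 8.19 in B16-F10 and 0.0237, 0.0601, 0.0754 and 0 in MC38, and Hoxb3, Hoxb5, Hoxb6 and Hoxb8 were also higher in B16-F10, with means of 1.33 to 2.42 there and at most 0.540 in MC38. Hoxb13, at 0.671 ± 0.212 and 1.98 ± 0.390, was the exception. The Hoxa cluster was active in both lines, with Hoxa10 at 36.1 ± 2.50 in B16-F10 and 27.4 ± 1.75 in MC38 and overlapping libraries for Hoxa5, Hoxa6 and Hoxa11. Hoxa7, at 4.50 ± 1.15 and 45.7 ± 2.21, was its MC38-high member.

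**Figure D4:**
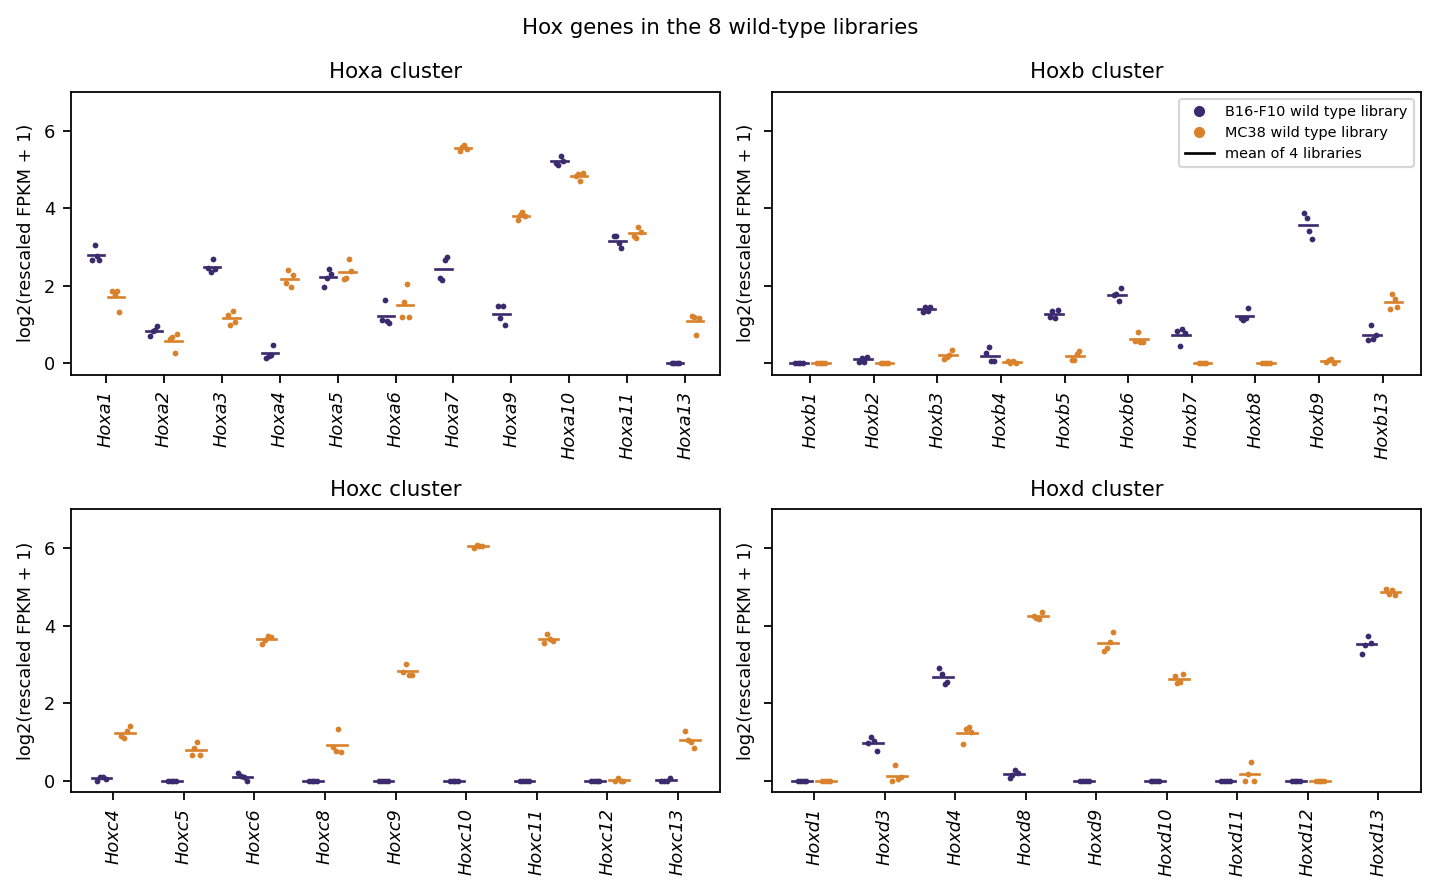
Level of 39 Hox genes in the 8 wild-type libraries, a panel per cluster, as log2(rescaled FPKM + 1), with a point per library and a bar at the mean of 4. Hoxc10 (63.4 to 66.8 in MC38) and the other Hoxc genes with signal stand at or near 0 in B16-F10, Hoxb3 to Hoxb9 are mostly higher in B16-F10, and Hoxa10 is close in both lines.

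Growth control genes differed in both directions, with 34 of 35 tumour suppressor and cell cycle genes kept and a median difference of -0.17. The B16-F10 libraries lay above in 12, the MC38 libraries in 17, and 5 overlapped. Across all kept genes the shares were 43.6%, 35.9% and 20.5%. Past the rule were 2, both MC38-high, against 3.0% of all kept genes. These 2 genes lie side by side. Cdkn2a, which encodes p16 and ARF, stood at 15.2, 17.6, 16.6 and 17.3 in MC38, and Cdkn2b, which encodes p15, stood at 33.4, 35.7, 36.0 and 43.0. Both were listed at 0 in all 4 B16-F10 libraries and in the 4 libraries of the edited B16-F10 cells. Mtap, the neighbour of Cdkn2a, was expressed in both lines, at 226, 215, 241 and 238 in B16-F10 and 319, 296, 307 and 306 in MC38, a ratio of 1.33. Trp53, the gene of p53, stood at 175 ± 9.96 and 193 ± 2.45, while its target Cdkn1a stood at 199 ± 52.6 in B16-F10 and 24.2 ± 1.70 in MC38, a ratio of 8.22 that fell just short of the rule on the log scale. Myc, the growth regulator, stood at 58.7 ± 9.28 in B16-F10 and 361 ± 22.7 in MC38, a ratio of 6.15 the other way.

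Receptor kinases gave 3 B16-F10-high and 4 MC38-high genes of 21 kept, against 4.07% and 3.0% of all kept genes. The MC38 libraries lay above in 15 and the B16-F10 libraries in 6, against 35.9% and 43.6% of all kept genes. The median difference was -1.18. Axl stood at 3.76, 3.63, 3.48 and 3.61 in B16-F10 and 322, 345, 308 and 326 in MC38, a ratio of 89.9. Fgfr1, a receptor for fibroblast growth factors, had 43.1 ± 2.18 in MC38 and 0.279 ± 0.0834 in B16-F10, Epha2, a receptor for ephrins, had 65.5 ± 2.82 and 0.651 ± 0.140, and Pdgfra, a receptor for platelet-derived growth factor, had 34.8 ± 1.85 and 1.02 ± 0.417. On the B16-F10 side were Kit, already given, the neuregulin receptor gene Erbb3, at 47.1 ± 9.43 in B16-F10 and 2.73 ± 0.0140 in MC38, and the collagen receptor gene Ddr1, at 97.5 ± 23.2 and 5.15 ± 0.553. Egfr was listed at 0 in B16-F10 and stood at 4.02, 2.96, 3.60 and 2.65 in MC38.

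Integrins, the receptors for matrix, gave 3 B16-F10-high and 2 MC38-high genes of 16 kept, against 4.07% and 3.0% of all kept genes. Itga4 stood at 44.9, 42.7, 34.2 and 31.9 in B16-F10 and Itga9, its close relative, at 13.1, 11.4, 13.8 and 13.6, and both were listed at 0 in MC38. Itgb3 (7.17 ± 0.535 in B16-F10 and 0.0120 ± 0.0045 in MC38) lay at the edge of the rule, with a difference of 3.01, and it was no longer past it under any of 4 other scalings, without B16-F10 library 3 or 4, or with libraries 1 and 2 alone. Itga3 (10.6 ± 0.994 in MC38 and 0.137 ± 0.0311 in B16-F10) and Itgb2, the beta chain of leukocyte integrins (12 ± 0.310 and 0.234 ± 0.107), were MC38-high. Itgb1, the beta chain common to many integrins, was close at 289 ± 10.7 in B16-F10 and 325 ± 15 in MC38.

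In the Wnt pathway, which acts through beta-catenin or through other routes, 20 of 31 genes were kept, 2 B16-F10-high and 3 MC38-high. Across all kept genes the shares were 4.07% and 3.0%. The ligand genes Wnt7b, at 97.1, 106, 100.1 and 104, and Wnt5a, at 81.8, 77.4, 80.1 and 78.7, were expressed in MC38 and at most at 0.0410 in B16-F10. Ctnnb1, which encodes beta-catenin itself, stood at 988, 969, 984 and 932 in B16-F10 and 115, 115, 111 and 110.1 in MC38, a ratio of 8.56, and fell short of the rule under scaling to median ratios and to the housekeeping list. The feedback gene Axin2 was also higher in B16-F10, at 10.7 ± 1.95 and 0.596 ± 0.0798. Genes of Wnt inhibitors divided, with Dkk3 at 22.1 ± 5.85 in B16-F10 and 0.0389 ± 0.0362 in MC38, and Apcdd1 listed at 0 in B16-F10 and at 9.89 ± 0.637 in MC38.

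Imprinted genes, which are expressed from a single parental copy, were often present in one line and absent in the other. Of 14 kept, 4 were B16-F10-high and 3 MC38-high, against 4.07% and 3.0% of all kept genes. Peg10 and Sgce, neighbours that share a control region, stood at 39.5 ± 5.61 and 77.3 ± 5.54 in B16-F10, and in MC38 Peg10 was listed at 0 and Sgce reached at most 0.0710. Mest stood at 70.3 ± 16.6 in B16-F10 and 0.102 ± 0.0945 in MC38, and the zinc finger gene Plagl1 at 254 ± 18.9 and 5.42 ± 0.305, a ratio of 46.8. Grb10, an adaptor that dampens insulin signalling, stood at 109.7 ± 4.62 in MC38 and at most at 0.0400 in B16-F10. H19, a noncoding RNA, stood at 10.4, 10.5, 9.68 and 11.1 in MC38 and was listed at 0 in B16-F10. Gnas was abundant in both lines, at 993 ± 55.3 and 928 ± 14.3, with overlapping libraries.

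The enzymes of cholesterol synthesis, the pathway named in the title of the series, gave a uniform and smaller difference. All 22 were kept and 0 were past the 8-fold rule, but in 21 the B16-F10 libraries lay above the MC38 libraries, with a median difference of 1.29. Across all kept genes 43.6% lay that way, and after scaling to median ratios or to the housekeeping list the count was 20 of 22. Early in the pathway, Hmgcs1 stood at 85.5, 83.2, 93.3 and 88.9 in B16-F10 and 39.4, 34.9, 34.9 and 36.5 in MC38, a ratio of means of 2.41. Mvd, the decarboxylase that closes the mevalonate steps, stood at 37.5, 41.4, 43.8 and 42.8 in B16-F10 and 5.14, 3.61, 4.78 and 5.57 in MC38, a ratio of 8.67. Neither of these genes overlapped between the lines. Mvk and Pmvk, the kinases of the mevalonate steps, had 29.5 ± 1.96 and 44.7 ± 5.09 in B16-F10 and 17.6 ± 1.26 and 25.9 ± 2.51 in MC38, and Acat2, the thiolase at the head of the pathway, had 106 ± 12.6 and 25.7 ± 1.43.

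At the branch point and after it B16-F10 was higher as well. Idi1, the isomerase of the isoprene unit, had 75.8 ± 2.27 in B16-F10 and 20.3 ± 1.28 in MC38, a ratio of 3.73. Fdps, which makes farnesyl diphosphate, had 495 ± 33.0 in B16-F10 and 119.6 ± 5.35 in MC38, a ratio of 4.14. Sqle, the squalene epoxidase, had 128 ± 5.05 and 81.8 ± 2.11, a ratio of 1.57, and its neighbours in the route, Fdft1 and Lss, had ratios of 1.77 and 2.62. In the late sterol steps Nsdhl had 48.6 ± 5.88 and 6.22 ± 0.569, Ebp had 79.0 ± 5.51 and 15 ± 0.755, Dhcr7, which makes cholesterol from its last precursor, had 135 ± 4.71 and 30.0 ± 2.03, and Tm7sf2 had the largest ratio, 10.7, on a low MC38 mean of 1.38 ± 0.651. With 1 added before the logarithm, Mvd and Tm7sf2 differed by 2.89 and 2.77 and so missed the rule. Cyp51, Msmo1 and Hsd17b7 had ratios of 2.92, 3.27 and 2.03, and Lbr and Sc5d, at 1.38 and 1.25, were closest to even among the sterol steps. The smallest ratio, 1.22, was that of Ggps1, which leads away from sterols, with 23.6, 27.0, 27.9 and 27.5 in B16-F10 and 23.8, 21.0, 21.5 and 21.0 in MC38, and its libraries overlapped. Summed over the list the level was 1907 to 2016 in B16-F10 and 686 to 726 in MC38.

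Ssbp4 itself, the gene altered in the other libraries of the series, stood at 65.9, 74.8, 66.0 and 71.0 in wild-type B16-F10 and 26.6, 34.2, 33.6 and 34.4 in wild-type MC38, a ratio of 2.16. Ldb1, the LIM-domain-binding cofactor with which SSBP proteins are known to pair, stood at 234 ± 9.66 and 93.0 ± 4.53. Of the SSBP, LDB, LMO and LIM-homeobox genes 10 of 18 were kept, and 2 were past the rule, both MC38-high, against 3.0% of all kept genes. These were the LIM-homeobox genes Lhx2, at 13.1 ± 0.820 in MC38 and listed at 0 in B16-F10, and Lhx6, at 9.39 ± 0.126 and 0.138 ± 0.101.

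**Figure D5:**
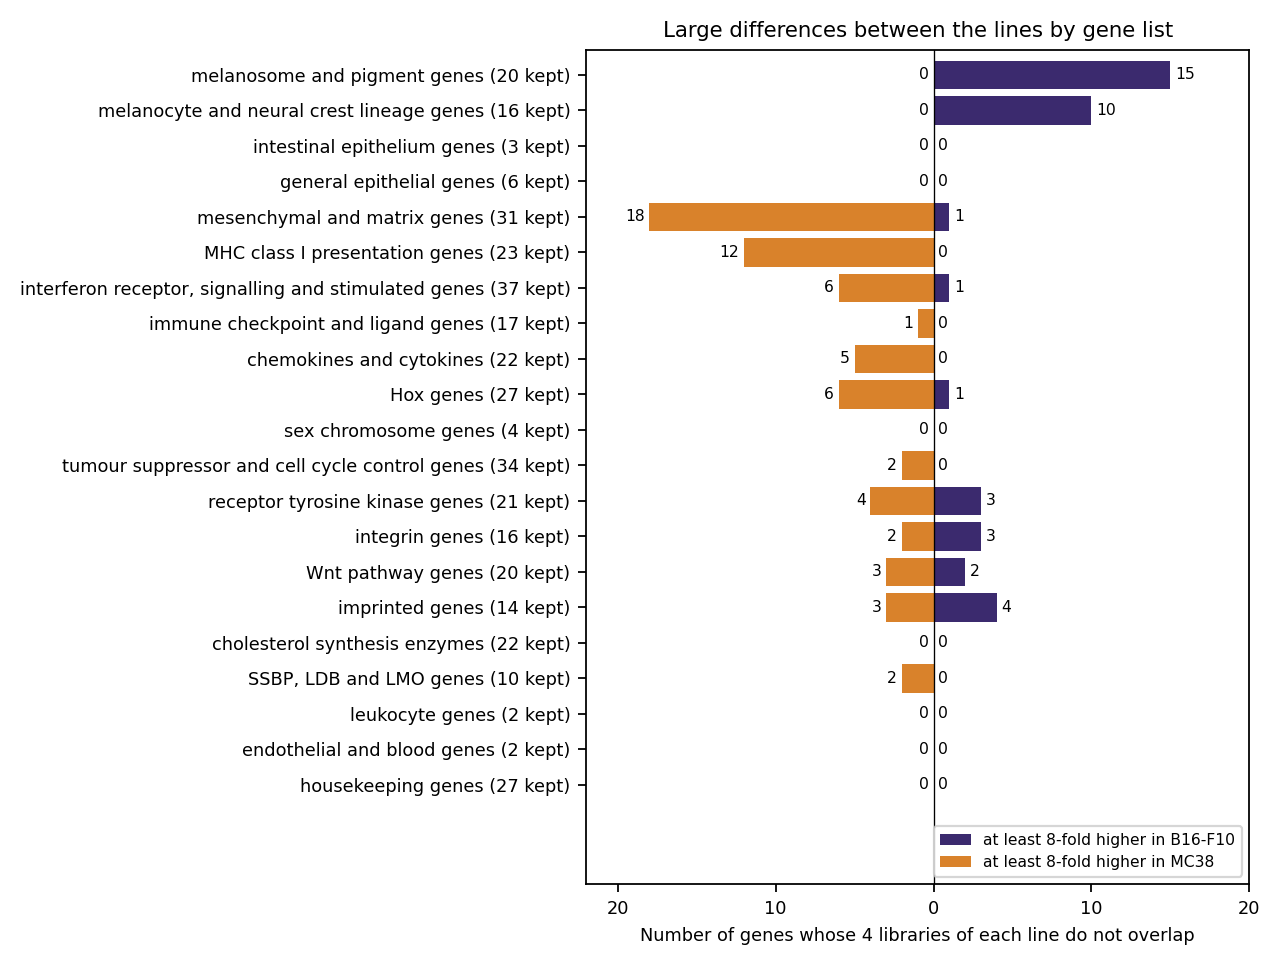
Number of genes per list past the 8-fold rule, with B16-F10-high genes as bars to the right and MC38-high genes as bars to the left, and the number of kept genes per list in parentheses. Pigment (15 of 20) and lineage genes (10 of 16) lie on the B16-F10 side, and mesenchymal (18 of 31) and MHC class I genes (12 of 23) on the MC38 side.

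Markers of other cells were absent or low. Of 16 leukocyte genes 2 were kept, of which Fcer1g had 1.94 ± 0.969 in B16-F10 and 0.121 ± 0.149 in MC38. Ptprc, Cd3e and Adgre1 were at most 0.0692 in any library, and Cd68 stood at 5.07, 5.74, 2.92 and 2.54 in B16-F10 and 4.04, 5.41, 4.59 and 5.61 in MC38 with overlap. The summed leukocyte level was 5.14 to 8.86 in B16-F10 and 4.80 to 6.33 in MC38. Of 15 endothelial and blood genes 2 were kept, with Egfl7 at 28.0 ± 3.98 and 9.48 ± 1.30 and Vwf at 2.84, 3.32, 0.857 and 0.560 in B16-F10 and at most 0.0711 in MC38, while Cdh5, Kdr and Tek were at most 0.0601 in every library and Pecam1 had means of 0.160 ± 0.0756 and 0.0871 ± 0.0245. The summed endothelial and blood level was 24.1 to 35.7 and 8.61 to 12.4. The MC38 libraries in which Itgb2 and Cd34 were high, as given above, thus had Ptprc and Cdh5 at or near 0.

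Within the lines, B16-F10 was the more variable for the genes that separate them. Over the B16-F10-high and MC38-high genes together the median range of 4 libraries was 0.29 on the log2 scale in B16-F10 and 0.16 in MC38, and the range reached 1 in 54 genes in B16-F10 and 11 in MC38. The set holds 524 B16-F10-high and 386 MC38-high genes, and a gene near 0 in a line shows little range there. The ranges were not split by direction, so the lines are not compared on equal terms. Slc16a3, a lactate transporter, stood at 2.78, 3.45, 33.5 and 32.9 in B16-F10 and at 212, 235, 199.6 and 221 in MC38. Bcan, a brain proteoglycan that melanoma cells also make, stood at 44.8, 49.0, 8.86 and 7.94 in B16-F10. Nppb, a natriuretic peptide gene, stood at 96.9, 101, 20.3 and 25.7. In all 3 genes libraries 1 and 2 were close to each other and apart from libraries 3 and 4. The estimated depths of these 4 libraries, in order and in units of 1000000 fragments, were 48.8, 46.6, 40.7 and 32.5, and whether depth plays a part was not tested.

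The large differences were also looked at in libraries that the rule did not use. Over all 15 libraries, the 4 Ssbp4-deleted B16-F10 libraries and the 3 Ssbp4-overexpressing MC38 libraries included, all 524 and all 386 genes kept the lines apart without overlap. This count includes the wild-type libraries by which the genes were called, so it was in part fixed in advance. Edited against edited, with only libraries outside the rule, 471 of the 524 and 353 of the 386 were still at least 8-fold apart. Tyrp1 stood at 10010.1, 9512, 9430.1 and 9836 in the deleted B16-F10 libraries, and H2-K1 at 6.27, 6.94, 5.79 and 6.44 there and 661, 645 and 612 in the overexpressing MC38 libraries. These libraries come from the same 2 tables and the same 2 lines, so they repeat the comparison of the lines and not the separation of line from table.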

How the data were processed

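The labels put 8 libraries in the wild-type groups, 4 per line, and no column was left unmapped. The authors deposited FPKM values in 1 table per line. GRCm39 is the build, and DESeq2 a tool, named in the submitters' notes on processing, with no step given for either. Which aligner and counter were used is not given in the sources used here. The tables hold 55303 and 54343 gene names, and the 53088 shared ones carry over 99.9% of the signal. Each column was rescaled over them to a common sum of 1000000 (Python 3.11.15, pandas 2.3.3, numpy 2.4.6, matplotlib 3.10.9), genes with a mean of at least 1 in either line were kept, and levels were compared as log2(value + 1). The rule of size was tested on simulated data. Depth was estimated from the steps between low FPKM values and gene lengths, with 84.4 to 86.1% of low values within 0.1 of whole fragments.

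The comparison, its markers and the 21 gene lists were chosen with earlier results of these data known. Named genes are the cell type markers, up to 4 per list and direction past the rule (where none was, up to 2 of the most abundant), the cholesterol enzymes and the 20 largest differences per direction among genes with a mean of at least 10 in the higher line and no predicted or clone name. Others were added after their values were seen. The alternatives were other added values, filters, scalings and fold limits and each library left out. The B16-F10 pairs of libraries taken alone were chosen after seeing the data. The 7 libraries with altered Ssbp4 enter only where named. A few genes of the lists are counted with them but are not reported here by name.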

Additional observations from a re-analysis of the deposited data

Results flagged for a closer look

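In 1 of the levels checked, a single library stood far from the other 3 of its line. Ggps1, which leads away from sterols, was 23.8 in MC38 library 1 and 21.0 to 21.5 in the other MC38 libraries. This was the MC38 library that overlapped with B16-F10. Chance alone marks about 1 in 20 such groups, and 172 levels were checked.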

How the results depend on the processing

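The main counts were 524 B16-F10-high and 386 MC38-high genes. With 0.1 added before the logarithm they were 1133 and 839, and with 5 added 207 and 131. At 4-fold they were 1061 and 783, and at 16-fold 292 and 198. They were 524 and 386 with a mean of at least 5 or without a filter, 360 and 259 with FPKM as deposited, 501 and 401 with median-of-ratios scaling, 487 and 417 with quantile normalization and 500 and 402 with housekeeping scaling. Leaving out 1 library at a time gave 515 to 530 and 384 to 390. Quantile normalization moved the median difference of all kept genes from 0.10 to -0.04. Of 91 named genes past the rule, 26 were no longer past it with 5 added, among them Cdkn2a, Twist1, Kit, Gbp2, Hoxb9 and Lhx2, and 13 with FPKM as deposited, all of them with a mean of 15 or less in the higher line. With median-of-ratios and housekeeping scaling, Ctnnb1 and Itgb3 were no longer past it. The sign differed in 11 of 2592 comparisons of named genes with a setting, in none of which the gene was past the rule, and each of these differences lay within 0.13 of 0. No paired analysis was possible because no test was made between the lines and the numbers of their libraries do not link them. Depth limits the low levels: a value listed at 0 says only that no fragment was counted.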

Other observations

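By chromosome, 12312 of the 12876 kept genes had a position in the reference annotation (GRCm38). Over all kept genes 4.07% were B16-F10-high and 3.0% MC38-high. Among the autosomes and X, chromosome 6 had the highest median difference, 0.83 on the log2 scale, with 50 of its 607 genes (8.24%) B16-F10-high and 17 (2.80%) MC38-high. On chromosome 9, 41 of 707 genes (5.80%) were B16-F10-high and 12 (1.70%) MC38-high. MC38-high genes outnumbered B16-F10-high genes on chromosomes 5 (19 and 22 of 765), 13 (7 and 13 of 460), 17 (17 and 20 of 624) and 19 (12 and 19 of 423), and chromosome 19 had the lowest median among the autosomes and X, -0.35. In that order the MC38-high shares were 2.88%, 2.83%, 3.21% and 4.49%, so those of chromosomes 5, 13 and 17 were near that of all kept genes. The B16-F10-high shares were 2.48%, 1.52%, 2.72% and 2.84%, each under that of all kept genes.

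In 11 places at least 3 genes called in the same direction were direct neighbours. Neighbours were taken among kept protein-coding genes with a position and without a predicted or clone name. How many such runs the shares of called genes alone would give was not tested. On chromosome 17, Psmb9, Tap1, Psmb8 and Tap2 formed a run toward MC38, and H2-D1, H2-Q4, H2-Q6 and H2-Q7 formed another. On chromosome 4, Elavl2, a neuronal RNA-binding protein, joined Cdkn2a and Cdkn2b, with 22.1 ± 1.62 in MC38 and 0 listed in every B16-F10 library. On chromosome 5, Mthfd2l lay beside Ereg and Areg, which encode ligands of the EGF receptor. Ereg stood at 42.5 ± 1.65 and Areg at 11.4 ± 1.28 in MC38, and both were listed at 0 in B16-F10. On chromosome 7, Tyr, Ctsc and Rab38 formed a run toward B16-F10, in which Ctsc, a lysosomal protease, had 27.4 ± 1.81 in B16-F10 and 0.0351 ± 0.0355 in MC38. Further runs toward B16-F10 were Insc, Sox6 and Plekha7 on chromosome 7, Pkib, Fabp7 and Smpdl3a on chromosome 10, and Cela1, Galnt6, Slc4a8 and Scn8a on chromosome 15. These genes were singled out after their values were seen.

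Genes of the sex chromosomes were a check of the lines. The Y-linked genes Ddx3y, Kdm5d and Eif2s3y were listed at 0 in all 8 libraries, and Xist, the RNA of the inactive X chromosome, was at most 0.137 in B16-F10 and 0.0332 in MC38. Their X-linked counterparts were expressed, with Ddx3x at 309 ± 20 in B16-F10 and 216 ± 11.5 in MC38 and Eif2s3x at 182 ± 18.7 and 350.0 ± 12.7.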
